A study of Mus musculus with 5 samples.

Results

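The E protein and ID factor genes are 6 genes of one transcription factor circuit, Tcf3, Tcf12 and Tcf4 on the E protein side and Id3, Id2 and Id1 on the ID side. They were taken by gene symbol through their Ensembl identifiers, by a rule that names the genes and sets no threshold on their values, and are 6 of the 55487 genes in the count tables. RNA of sorted thymocytes was compared between wild type C57BL/6J mice (WT, 3 libraries) and Tet2-/-Tet3flx/flxCD4cre mice of the same strain (Tet2/3 DKO, 2 libraries), in which Tet2 is absent from every cell and Tet3 is removed by a Cre that the Cd4 gene's elements switch on from the double positive thymocyte stage. The sorted cells were live, mature CD4 single positive (CD4 SP) cells, with low CD24 (also called HSA), positive for CD4 and the TCR beta chain, negative for CD8 and not bound by the CD1d tetramer loaded with alphaGalCer that marks iNKT cells. The mice were 21 to 30 days old by the study's methods. The study gives as many mice as libraries in each group, all of them male.

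E proteins are basic helix-loop-helix factors that pair with each other and bind the E box, a short DNA motif. ID proteins carry the helix-loop-helix but no DNA binding region, so an E protein paired with an ID protein cannot bind DNA. In the thymus, E proteins drive the early T cell program and hold cells at its checkpoints, and signals through the pre-TCR and the TCR raise ID genes, Id3 above all, which lets thymocytes pass on. Tcf3 encodes the E12 and E47 splice forms, Tcf12 encodes HEB, Tcf4 is best known as the factor of plasmacytoid dendritic cells, Id2 is linked to innate lymphoid and effector T cells, and Id1 is used mainly outside the T lineage. TET proteins oxidise methylated cytosine in DNA, a step towards its removal. DNA methylation, protein levels and E protein binding are not measured in these counts.

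The libraries held 17607089 to 27267031 reads on genes. Tet3 was at 43.8, 45.6 and 52.5 CPM (read counts scaled to a common library size, with TMM factors) in the WT libraries and at 20.0 and 13.2 CPM in the Tet2/3 DKO libraries (log2 fold change -1.50, SE 0.18, adjusted p = 0.00121 by edgeR's quasi-likelihood test). Tet2 transcript was at 52.4 to 57.8 CPM in WT and 91.5 and 58.6 CPM in Tet2/3 DKO (adjusted p = 0.135), and a count over the whole gene does not check a germline deletion of part of it. In 2 libraries the sex-linked RNA went against the labels: DKO replicate 1, labelled male, had 744 Xist reads and 7 reads on 4 Y-linked genes, and WT replicate 1, labelled female, had 0 and 6821. The other 3 libraries had at most 2 Xist reads and 5101 to 7041 Y-linked reads. DKO replicate 1 also had 5.70% of its reads outside annotated genes, against 3.51% to 3.72% in the others. The members, the Id2 to Id3 ratio and the balance are therefore given with and without it. Tet3 and Eomes stood in both mismatched libraries on the side of the labelled genotype, with Eomes at 1.78 CPM in WT replicate 1 and 81.2 CPM in DKO replicate 1.

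The 9 CD4 SP T cell markers were detected in every library and summed to 8732 to 9269 CPM in WT and 7963 to 8960 CPM in Tet2/3 DKO, a sum carried mainly by the TCR and CD3 chains that all alpha beta T cells express. Cd4, Cd5 and Zbtb7b, which encodes the CD4 lineage factor Th-POK, fell, with Zbtb7b at 37.7 to 51.7 CPM in WT and 19.1 and 19.7 CPM in Tet2/3 DKO (adjusted p = 0.00225 by edgeR). The 7 double positive thymocyte markers summed to 88.6 to 98.2 and to 48.6 and 50.5 CPM. Of these, Cd8b1 fell from 65.9 to 71.7 CPM to 28.6 and 27.1 CPM (adjusted p = 0.000168), Dntt was at 17.2 to 23.6 and 13.6 and 14.2 CPM (adjusted p = 0.106), Cd8a was higher at 2.71 to 5.39 and 5.77 and 8.67 CPM (adjusted p = 0.128), and Rag1, Rag2 and Ptcra had 0 to 3 reads in each library. Of the other lineages, 7 NK cell and ILC markers summed to 5.56 to 7.39 CPM in WT and 24.7 and 50.02 CPM in Tet2/3 DKO. Of the 5 that passed the low-count filter, Klrb1c, Klrd1 and Ncr1 were higher. Ncr1 had at most 1 read in a WT library and 31 and 40 reads in Tet2/3 DKO. It passed the filter only through the group where it is high, so its call carries no weight of its own. The 7 myeloid markers summed to 6.23 to 11.8 and to 21.7 and 44.9 CPM, mostly Lyz2 (adjusted p = 0.0142), and the 8 B cell markers to 6.42 to 8.49 and to 10.2 and 11.8 CPM. The 4 iNKT markers summed to 328 to 353 and to 569 and 693 CPM. Most of this sum was Slamf6, at 244 to 279 CPM in WT and 508 and 621 CPM in Tet2/3 DKO. Slamf6, Zbtb16 and Klrb1c, which is also an NK cell and ILC marker above, were higher. Slamf1 was lower, at 70.3 to 84.9 CPM in WT and 41.8 and 40.1 CPM in Tet2/3 DKO (adjusted p = 0.00152). The 5 gamma delta T cell markers summed to 28.5 to 30.5 and to 235 and 376 CPM, where the Tcrg constant genes rose and the delta constant gene Trdc was at 11.7 to 16.7 and 15.3 to 18.3 CPM. The fifth of them, Sox13, was at 0.947 to 1.08 and 0.238 and 0.224 CPM (adjusted p = 0.0361). In bulk RNA, fewer cells of a type and less RNA per cell cannot be told apart.

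Each gene's level per length set the frame of the circuit. Per kb of exonic length, Id3 was the most abundant of the 6 in WT CD4 SP cells at 274 ± 19.4 CPM per kb (SD, n = 3). Id2 followed at 70.0 ± 9.38 and Tcf3 at 32.1 ± 1.41 CPM per kb. Tcf12 stood at 3.61 ± 0.131, Id1 at 1.04 ± 0.278 and Tcf4 at 0.312 ± 0.0565 CPM per kb. In WT no neighbours in this order overlapped between libraries, and the Tet2/3 DKO libraries had the same order. Id3 and Id2, however, lay 3.91-fold apart in the WT means and 1.82-fold apart in the Tet2/3 DKO means, where the lowest Id3 value (137 CPM per kb) was close to the highest Id2 value (114 CPM per kb). The exonic lengths of Tcf12 (15529 bases) and Tcf4 (27382 bases) join many isoforms and lower their values. With the longest protein-coding transcript as the length instead, Tcf12 stood at 8.89 ± 0.324 CPM per kb in WT, and Tcf4 at 0.995 ± 0.180 no longer lay apart from Id1 at 1.04 ± 0.278 (an alternative chosen after seeing the data).

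**Figure D1:**
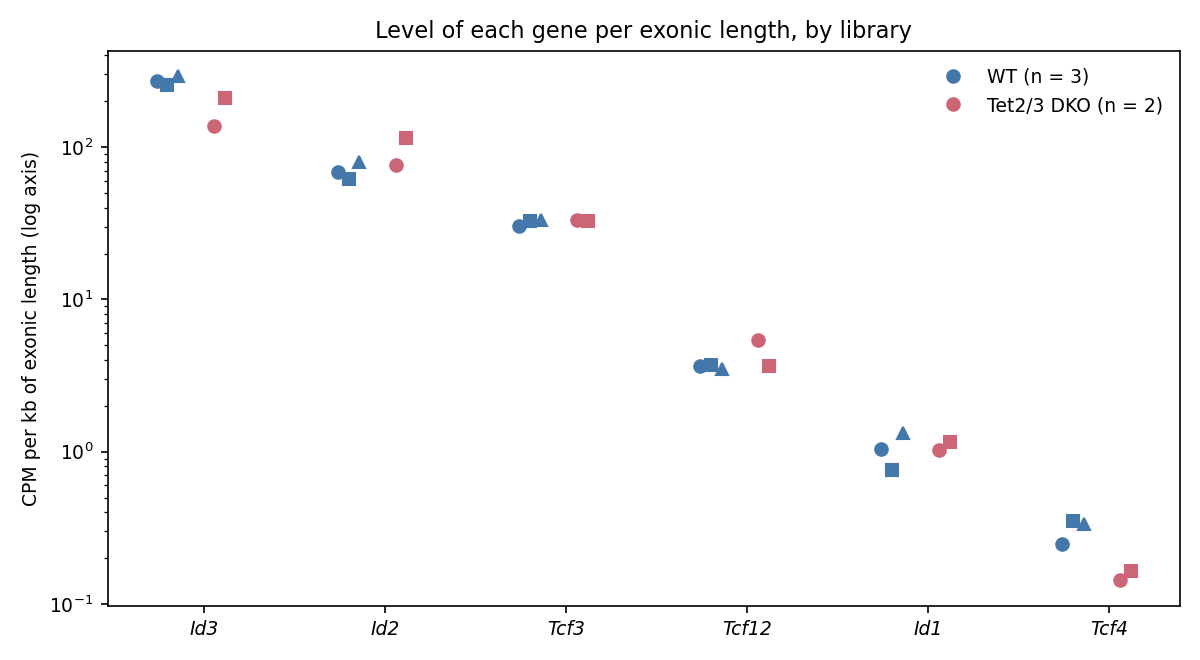
CPM per kb of exonic length (log axis) of the 6 genes in each library, with WT libraries in blue and Tet2/3 DKO libraries in red, and circles, squares and triangles for replicates 1, 2 and 3. Id3 and Id2 lead in every library, and the gap between them is narrower in the 2 Tet2/3 DKO libraries.

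The promoters of 4 of the 6 genes were matched in RefSeq (GRCm38.p6, 250 bases before to 50 after a start site), and their E boxes are shown because the E box, CANNTG on either strand, is the motif E proteins bind. The capitals mark the E box, and each line runs 5′ to 3′ on the gene's strand.
Id2, chr12:25096271-25096300, minus strand: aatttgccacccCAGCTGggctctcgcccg
Tcf3, chr10:80433672-80433701, minus strand: agtgggcgtggtCACTTGggggcgtggctt
Tcf12, chr9:72112042-72112069, minus strand: agatgctgccCAGCTGcgtccccgtcgc
The E box begins 196 bases before the start site in Id2, 54 before it in Tcf3 and 240 before it in Tcf12, for which the table lists 3 start sites and the most upstream one is shown. The other Tcf12 start sites held CAAGTG and CACTTG, the Tcf3 form on either strand, and CATGTG. The form CAGCTG of Id2 and the Tcf12 promoter shown was found in 16.3% of the 32851 promoters of the table, and CACTTG stood on either strand in 13.6% of them. The Id3 window held no CANNTG, which 72.3% of all promoters hold. These are matches of letters only, and binding is not measured here.

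None of the 6 genes passed an adjusted p of 0.01 over all 13525 tested genes, where 530 genes (3.92%) did. All 6 passed the low-count filter. At 0.05, 2 of the 6 passed, Id3 and Tcf4, both lower in Tet2/3 DKO cells, beside 8.67% of all tested genes in either direction and 3.48% in that direction. With any 1 WT library left out neither passed 0.05, with adjusted p-values by edgeR of 0.0977 to 0.139 for Id3 and 0.0512 to 0.148 for Tcf4, and Id3 was at 0.0614 under robust moderation and Tcf4 at 0.122 on first strand counts. The same 2 genes were the ones with both Tet2/3 DKO libraries below every WT library, which 19.5% of all tested genes showed (39.1% counted in either direction). DESeq2, the tool of the study, passed both at 0.01, at which it called 6.91% of the genes it adjusted.

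**Figure D2:**
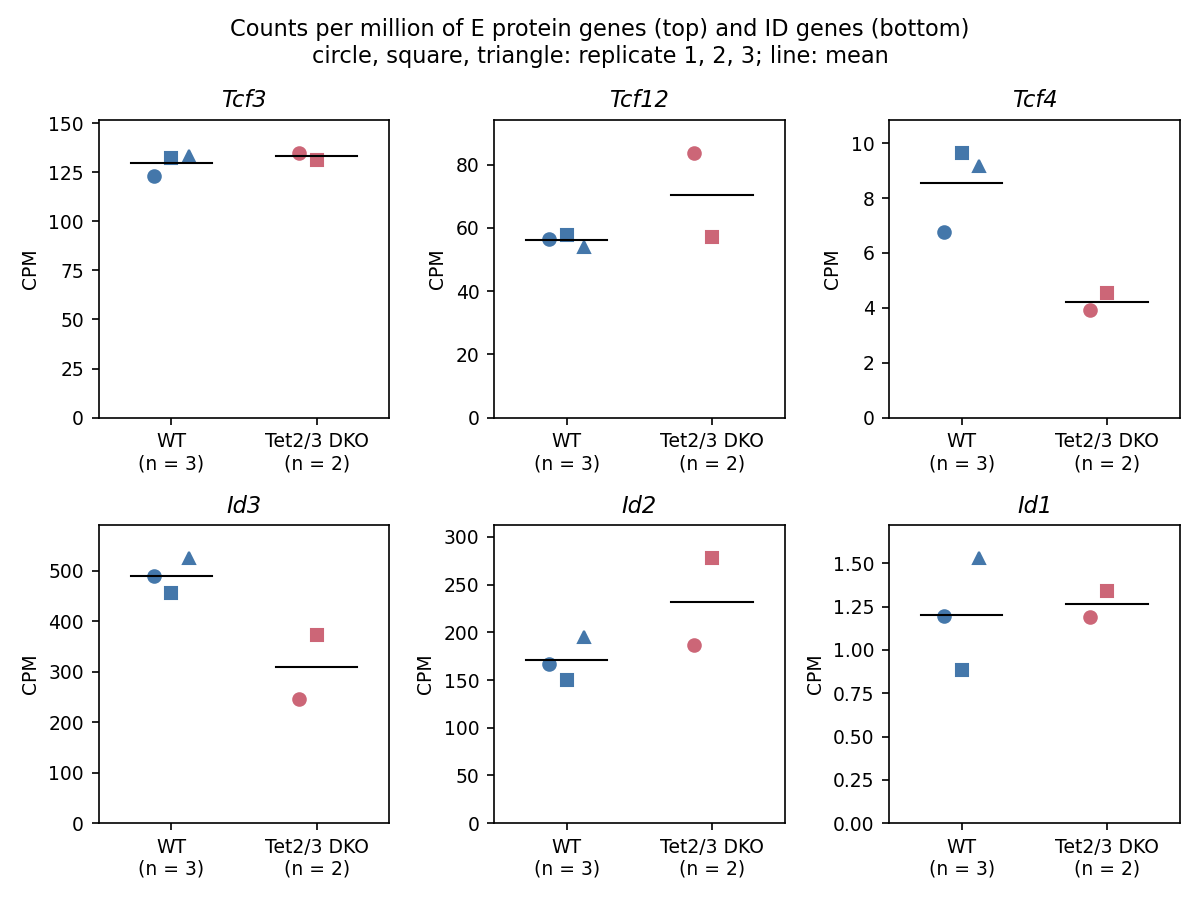
CPM of each gene in each library (linear axes from 0), with E protein genes in the top row, ID genes in the bottom row, and a line at each group mean. Both Tet2/3 DKO points lie below all 3 WT points for Tcf4 and Id3 and overlap the WT points for the others, where Tcf12 and Id2 each have 1 Tet2/3 DKO library away from the WT range.

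Id3 (ENSMUSG00000007872, GRCm38 chromosome 4, 136143497 to 136145755, plus strand), the main ID gene induced by TCR signals, was at 490, 456 and 525 CPM in the WT libraries and 245 and 374 CPM in the Tet2/3 DKO libraries. The lowest of the 5 values rests on 5145 reads, and the groups did not overlap. The log2 fold change was -0.67 (SE 0.16, 95% interval -1.02 to -0.31, adjusted p = 0.0318 by edgeR, 0.00109 by DESeq2), a level 1.59-fold lower. The size hung on which Tet2/3 DKO library was used: -1.01 with DKO replicate 1 alone (adjusted p = 1.37e-05 by edgeR) and -0.39 with DKO replicate 2 alone (adjusted p = 0.0212). In both fits the lone library is assumed to vary as the WT libraries do.

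Id2 (ENSMUSG00000020644, chromosome 12, 25093799 to 25097140, minus strand), which marks innate lymphoid and effector T cells, was at 167, 150 and 195 CPM in WT and 186 and 278 CPM in Tet2/3 DKO. DKO replicate 1 lay inside the WT range and DKO replicate 2 above it. The log2 fold change was 0.44 (SE 0.17, 95% interval 0.06 to 0.82), with an unadjusted p of 0.0264 and an adjusted p of 0.149 by edgeR. It was 0.70 with DKO replicate 2 alone (adjusted p = 0.000764 by edgeR) and 0.11 with DKO replicate 1 alone (adjusted p = 0.628). The summed NK cell and ILC, myeloid, gamma delta T cell and iNKT markers were higher in both Tet2/3 DKO libraries. They were highest in DKO replicate 2, as Id2 was. The iNKT sum was mostly Slamf6, and the gamma delta sum mostly the Tcrg constant genes. Not all markers followed these sums. Trdc was at 18.3 CPM in DKO replicate 1 and 15.3 CPM in DKO replicate 2, and Slamf1 and Sox13 were lower than in WT. The part of such cells in the Id2 value was not tested.

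Id1 (ENSMUSG00000042745, chromosome 2, 152736251 to 152737410, plus strand) was near the floor of the measurement. It had 31, 21 and 42 reads in WT and 25 and 24 reads in Tet2/3 DKO, or 0.885 to 1.53 and 1.19 to 1.34 CPM. The groups overlapped, and the log2 fold change of 0.05 had a 95% interval of -0.84 to 0.94, so a change of less than about that size was not detectable at this depth. It was 0.14 without DKO replicate 1, and its sign turned under 3 alternatives. Id4, the remaining ID gene, had 0 reads in all 5 libraries.

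Tcf3 (ENSMUSG00000020167, chromosome 10, 80409514 to 80433647, minus strand), the leading E protein gene of these cells, was at 123, 132 and 133 CPM in WT and 135 and 131 CPM in Tet2/3 DKO. The 5 values span a narrow range and the groups overlapped. The log2 fold change was 0.04 (SE 0.09, adjusted p = 0.854 by edgeR). It was 0.02 without DKO replicate 1. The 95% interval of -0.16 to 0.24 was the narrowest among the 6 genes.

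Tcf12 (ENSMUSG00000032228, chromosome 9, 71842688 to 72111871, minus strand), the partner of E proteins in thymocyte development, was at 56.4, 57.9 and 53.8 CPM in WT and 83.8 and 57.1 CPM in Tet2/3 DKO. DKO replicate 1 alone stood apart. The log2 fold change was 0.33 (SE 0.15, 95% interval -0.01 to 0.67, adjusted p = 0.225 by edgeR), 0.57 with DKO replicate 1 alone (adjusted p = 0.00365) and 0.03 with DKO replicate 2 alone (adjusted p = 0.935). DKO replicate 1, like WT replicate 1, had sex-linked RNA that went against its label, and it had most reads outside genes. The part of either in the Tcf12 value was not tested.

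Tcf4 (ENSMUSG00000053477, chromosome 18, plus strand) was the least abundant E protein gene, with 175, 229 and 252 reads in WT and 82 and 81 reads in Tet2/3 DKO. These are 6.77, 9.65 and 9.18 CPM against 3.91 and 4.53 CPM, and the groups did not overlap. The log2 fold change was -1.02 (SE 0.25, 95% interval -1.59 to -0.45, adjusted p = 0.0372 by edgeR, 0.00569 by DESeq2), a level 2.03-fold lower. Unlike that of Id3, its size was alike with either Tet2/3 DKO library alone, at -0.91 without DKO replicate 1 and -1.14 without DKO replicate 2. The 7 plasmacytoid dendritic cell markers, a lineage known for Tcf4, summed to 272 to 318 CPM in WT and 470 and 367 CPM in Tet2/3 DKO, nearly all of it Bst2, Ccr9 and Irf8, which other cells also express. Siglech, which defines these cells, had 0 reads in each WT library and 8 and 5 reads in the Tet2/3 DKO libraries. The part of such cells in the Tcf4 value was not tested.

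**Figure D3:**
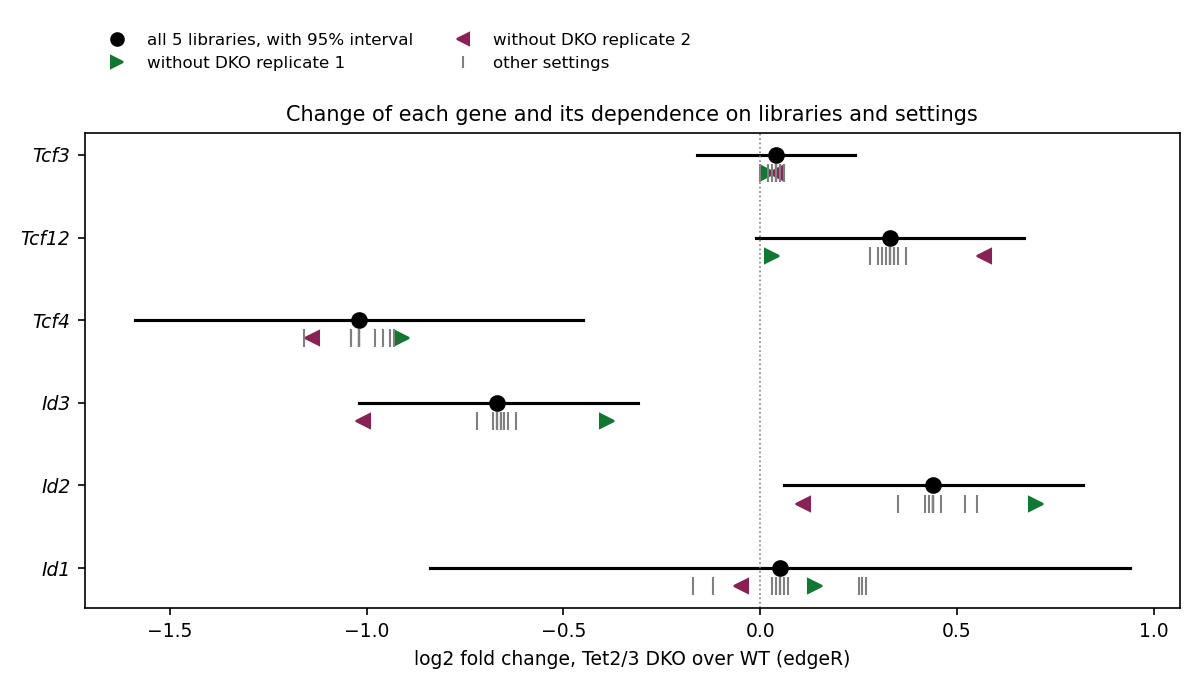
Log2 fold change (Tet2/3 DKO over WT) of each gene from all 5 libraries with its 95% interval (black), with either DKO library left out (green and purple arrowheads) and under the other settings (grey ticks). Id3, Id2 and Tcf12 move with the DKO library left out, while Tcf3 stays between 0.00 and 0.06 and Tcf4 between -1.16 and -0.91.

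Within a library, 2 genes can be compared with no scaling between libraries, and the Id2 share of the ID reads was alike in both Tet2/3 DKO libraries. Id2 gave 25.4% (95% Wilson interval 24.8 to 26.1), 24.8% (24.1 to 25.5) and 27.1% (26.5 to 27.7) of the Id2 and Id3 reads in the WT libraries. It gave 43.2% (42.2 to 44.2) and 42.6% (41.7 to 43.5) in the Tet2/3 DKO libraries, intervals that cover counting error only. The 2 Tet2/3 DKO libraries, which differed in the level of both genes, gave overlapping intervals, and both lay above every WT library. The log2 Id2 to Id3 ratio per kb averaged -1.97 ± 0.09 (SD) over the 3 WT libraries and -0.86 ± 0.02 over the 2 Tet2/3 DKO libraries, a 2.17-fold higher ratio. The log2 difference was 1.10 without DKO replicate 1 and 1.13 without DKO replicate 2. The exact permutation test gave p = 0.1 (two-sided), the smallest that this test can give with 3 libraries against 2.

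The summed E to ID balance overlapped between the groups. The balance is the log2 of the summed Tcf3, Tcf12 and Tcf4 reads per kb over the summed Id3, Id2 and Id1 reads per kb. It was -3.32, -3.10 and -3.35 in the WT libraries and -2.46 and -3.16 in the Tet2/3 DKO libraries. The ID sum per kb of exonic length was thus 8.60-fold to 10.2-fold the E sum in WT and 5.51-fold and 8.91-fold in Tet2/3 DKO. DKO replicate 2 lay inside the WT range and DKO replicate 1 above it. The difference of 0.45 had p = 0.2 in the exact permutation test (two-sided), and was 0.10 without DKO replicate 1. With the longest protein-coding transcript as the length (chosen after seeing the data), the ID excess was smaller in each library. The balance was then -3.19, -2.97 and -3.22 in WT and -2.27 and -3.01 in Tet2/3 DKO. Tcf3 made up 85.8% to 89.7% of the E sum in the 5 libraries, while Id3 made up 78.3% to 80.3% of the ID sum in the WT libraries and 63.9% and 64.4% of it in the Tet2/3 DKO libraries. The sign of the difference turned with Id3 left out of the sums, at -0.35, and with the mean of log2 levels, which gives the sparse genes equal weight, in place of sums, at -0.16.

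**Figure D4:**
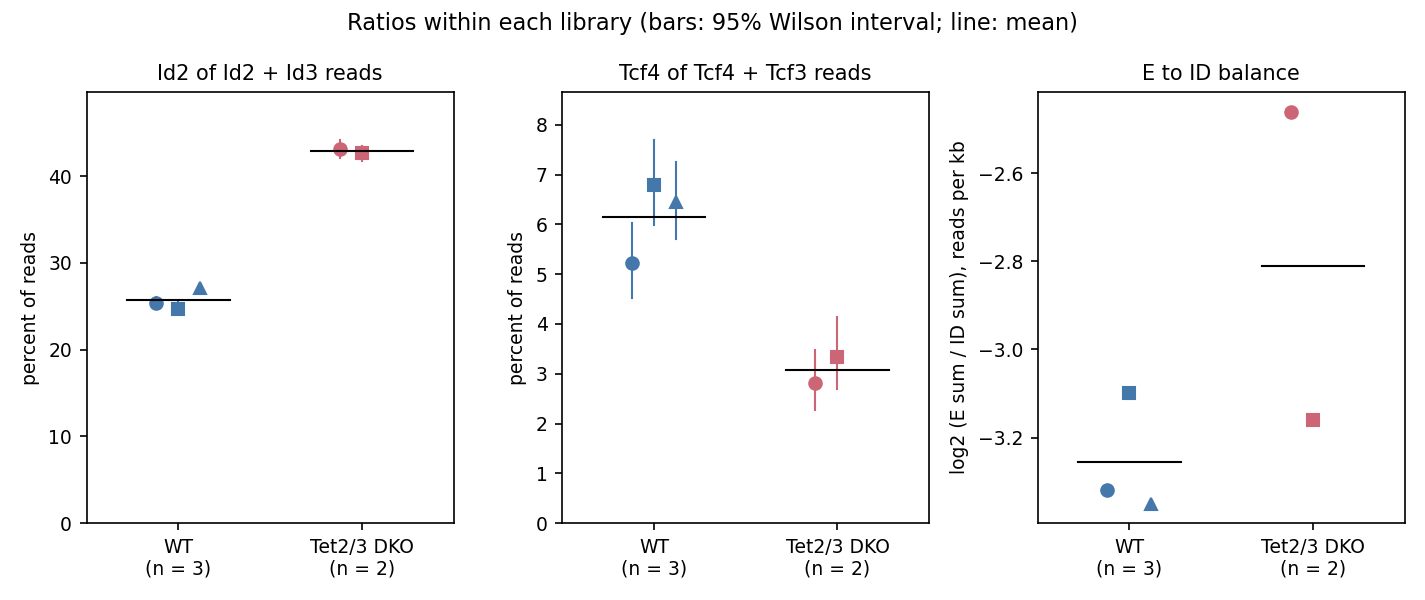
Percent of Id2 and Id3 reads that are Id2 (left), percent of Tcf4 and Tcf3 reads that are Tcf4 (middle), and the log2 E to ID balance (right, axis not from 0) in each library, with 95% Wilson intervals on the shares and a line at each group mean. The groups lie apart in the 2 share panels and overlap in the balance.

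The same comparison within the E protein pool set Tcf4 and Tcf12 against Tcf3. Tcf4 reads were 5.22%, 6.80% and 6.44% of the Tcf4 and Tcf3 reads in WT and 2.82% and 3.34% in Tet2/3 DKO, and the groups did not overlap. The Tcf12 share of the Tcf12 and Tcf3 reads was 28.7% to 31.4% in WT and 38.3% and 30.3% in Tet2/3 DKO, with DKO replicate 2 inside the WT range. Of the 10 ratios between members other than the sparse Id1, 6 did not overlap between the groups, and each of the 6 had Id3 or Tcf4 in it, the genes that did not overlap on their own. The share among ratios of other gene pairs was not computed. Each of these 6 had p = 0.1 in the exact permutation test, or 0.167 after adjustment over the 10 ratios. Tcf4 to Id3 was among the 4 that overlapped, at -9.79 ± 0.31 (SD) over the WT libraries and -10.10 ± 0.28 over the Tet2/3 DKO libraries on the log2 scale.

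Around the 6 genes, 14 of 54 tested genes passed 0.01 (9 higher, 5 lower) over 8 lists, beside 3.92% of all tested genes. The lists hold partners, cofactors, inputs, targets, genes of linked T cell states and HMG box genes. Of the last, Tcf7l1 and Tcf7l2 have shared symbols with E protein genes. The lists were drawn up with earlier results of these data known, and the median log2 fold change of all tested genes was 0.01. With any 1 WT library left out, 3 of the 14 passed (Eomes, Prf1 and Zbtb16), beside 110 to 152 genes over the whole table. The range with any 1 library left out is given at the end, beside that over the whole table.

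Among the helix-loop-helix partners and LMO bridge factors, 3 of 10 genes passed the low-count filter and 1, Lmo2, rose. With any 1 WT library left out, 0 passed 0.01. Lmo2 joins E protein complexes to other DNA-bound factors in early progenitors. It was at 1.18 to 1.57 CPM in WT and 4.62 and 5.20 CPM in Tet2/3 DKO (log2 fold change 1.84, SE 0.28, adjusted p = 0.00387 by edgeR). Its relative Lmo4 was at 36.4 to 48.9 and at 62.1 and 84.0 CPM (adjusted p = 0.0248), and their shared partner Ldb1 at 116 to 135 and 122 and 101 CPM (adjusted p = 0.354). Tal1 had no reads in any library, and Tal2, Lyl1, Ascl2, Msc and Lmo1 had at most 18 in any.

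The cofactors and turnover factors did not pass in either direction, with or without DKO replicate 1. All 7 tested, from the coactivators Ep300 and Crebbp and the corepressor Cbfa2t2 to the ID protein deubiquitinase Usp1, had log2 fold changes of -0.21 to 0.17 (median -0.15), with adjusted p-values of 0.286 to 0.885 by edgeR. Of them, 0 had an unadjusted p under 0.05 and 0 passed 0.01 by DESeq2.

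Of the 12 genes that feed ID transcription, all tested, 2 rose and none fell. The number past 0.01 was 1 on first strand counts and 0 with any 1 WT library left out. Tgfbr1, a TGF-beta receptor, was at 7.54 to 9.26 CPM in WT and 17.4 and 16.1 CPM in Tet2/3 DKO (log2 fold change 0.99, SE 0.16, adjusted p = 0.00614). Gfi1, a zinc finger repressor, was at 9.69 to 11.7 and at 26.4 and 25.4 CPM (log2 fold change 1.24, SE 0.15, adjusted p = 0.00114). Egr1, the TCR-induced activator of Id3, was at 105, 128 and 137 CPM in WT and 74.8 and 111 CPM in Tet2/3 DKO (log2 fold change -0.41, SE 0.17, adjusted p = 0.19 by edgeR). Egr1 and Id3 were both lower in DKO replicate 1 than in DKO replicate 2, while Egr2 stood at 23.6 CPM in the former and 69.5 in the latter, on either side of the WT range of 34.1 to 42.7. Smad1, the BMP signal carrier, was at 36.6 to 41.6 and at 25.9 and 27.3 CPM (adjusted p = 0.0179), while the BMP receptor gene Bmpr2 was at 0.590 to 1.02 and at 2.29 and 2.29 CPM (adjusted p = 0.0437).

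Of 12 E protein target genes known from lymphocytes, 7 were tested, 2 rose and 1 fell. With any 1 WT library left out, only Zbtb16 of them passed 0.01. Cd4, whose enhancer E proteins bind, fell from 572 to 752 CPM in WT to 389 and 433 CPM (log2 fold change -0.67, SE 0.12, adjusted p = 0.0095 by edgeR). The cell cycle inhibitor Cdkn1a rose by 2.79 on the log2 scale (SE 0.35, adjusted p = 0.00169), from 0.510 to 0.843 CPM to 3.81 and 5.32 CPM. Zbtb16, which encodes PLZF of innate-like T cells, rose by 3.85 (SE 0.29, adjusted p = 8.57e-05), from 0.548 to 1.24 CPM to 11.97 and 14.1 CPM. Zbtb16 is also 1 of the 4 iNKT markers, of which 3 rose and 1 fell as given above, and their part in its value was not tested. Notch1 was at 7.29 to 10.2 and at 8.25 and 6.60 CPM (adjusted p = 0.784), and Rag1, Rag2, Ptcra, Igll1 and Ebf1 had too few reads to test.

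Among 8 follicular helper genes, a program that E proteins favour and ID proteins restrain, 7 were tested, 2 rose and none fell (median log2 fold change 1.29). Under robust moderation 1 of the genes passed 0.01, and with any 1 WT library left out neither Icos nor Il4 did. The costimulator Icos was at 252 to 298 CPM in WT and 437 and 710 CPM in Tet2/3 DKO (2.11-fold higher, adjusted p = 0.00532). Il4 was at 0.474 to 0.696 and at 2.76 and 3.41 CPM (log2 fold change 2.32, SE 0.35, adjusted p = 0.00404). The chemokine receptor Cxcr5 was at 2.75 to 4.72 CPM in WT, 5.10 in DKO replicate 1 and 25.4 in DKO replicate 2 (adjusted p = 0.0724), and Pdcd1 at 77.9 to 82.9, 94.5 and 295 CPM (adjusted p = 0.0557). Both were highest in DKO replicate 2, the library that also had the highest NK cell and ILC, gamma delta T cell, iNKT and myeloid marker sums, whose part in these values was not tested.

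Of 9 effector genes linked to Id2, 8 were tested, 1 rose and none fell (median 1.47). Perforin, Prf1, was at 21.2 to 23.4 CPM in WT and 70.8 and 71.9 CPM in Tet2/3 DKO (log2 fold change 1.67, SE 0.11, adjusted p = 3.09e-05 by edgeR). Tbx21 was at 2.57 to 4.12, 7.15 and 18.7 CPM (adjusted p = 0.019), and Gzmb at 2.59 to 4.22, 1.001 and 47.2 CPM (adjusted p = 0.11). Tbx21 and Gzmb were highest in DKO replicate 2, as the NK cell and ILC and the gamma delta T cell marker sums were. The part of such cells in these values was not tested.

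Of 9 memory and naive genes linked to Id3, all tested, 3 fell and 1 rose (median -0.41). With any 1 WT library left out, only Eomes of them passed 0.01. Tcf7 was at 1183 to 1384 CPM in WT and 922 and 818 CPM in Tet2/3 DKO (log2 fold change -0.56, SE 0.10, adjusted p = 0.00741), Lef1 fell by 0.60 (SE 0.10, adjusted p = 0.00611) and Ccr7 fell by 0.65 (SE 0.08, adjusted p = 0.00153). Eomes, a T-box factor of memory and cytotoxic cells, was the member that rose, from 1.78 to 2.62 CPM to 81.2 and 92.8 CPM (log2 fold change 5.32, SE 0.16, adjusted p = 1.02e-06 by edgeR). Bcl2 was at 149 to 151 CPM in WT, 373 in DKO replicate 1 and 157 in DKO replicate 2 (adjusted p = 0.104), a pattern in which, as for Tcf12, DKO replicate 1 stood apart.

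**Figure D5:**
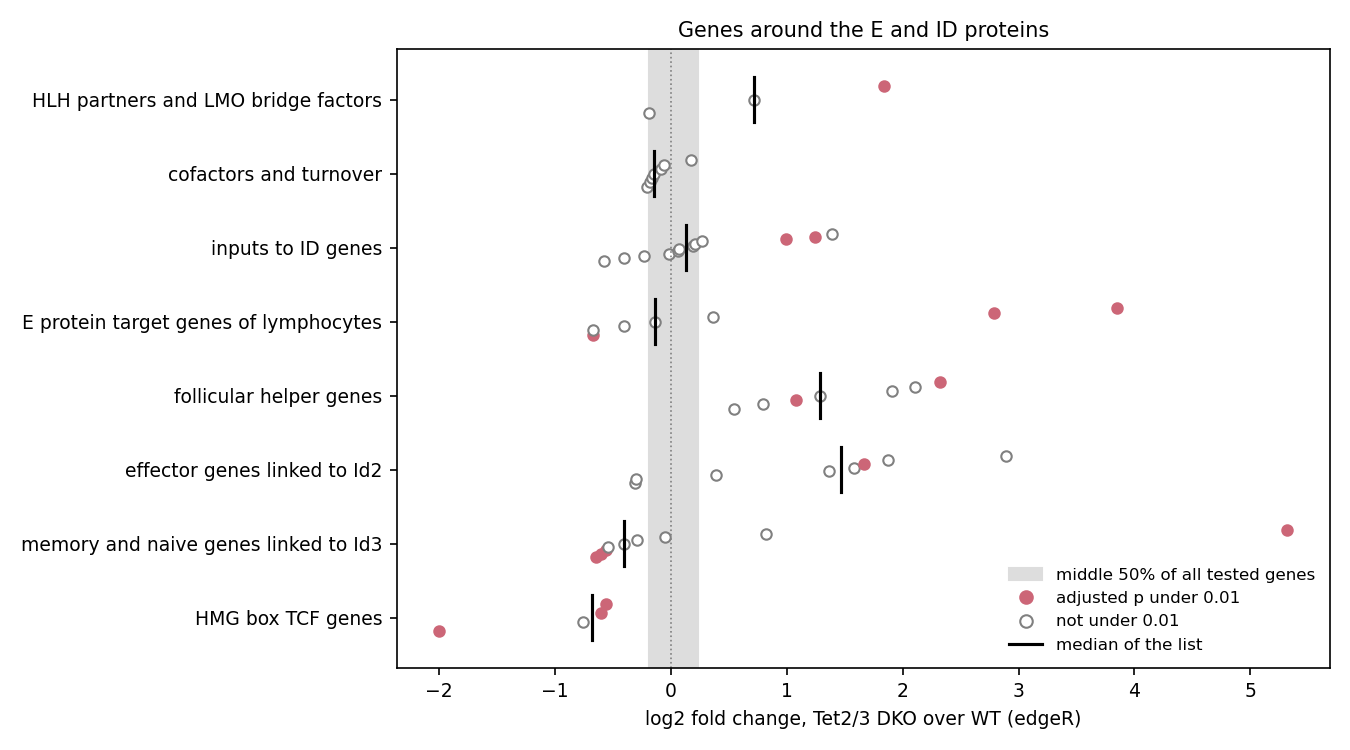
Log2 fold change (Tet2/3 DKO over WT) of each tested gene of 8 lists around the E and ID proteins, filled where the adjusted p is under 0.01, with a black bar at each list's median and a grey band over the middle 50% of all tested genes (-0.19 to 0.23). Cofactors lie in or near the band, follicular helper genes lie above it, and Eomes and Zbtb16 lie farthest out.

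The genes nearest to each member in profile were found from the distance between log2 CPM profiles, each centred on its own mean, over the 5 libraries. Tcf3 lay closest to E2f4 (distance 0.037) and Ppp4r3b (0.040), whose values were also flat. Tcf12 lay closest to Fyco1 (0.050) and Rab21 (0.063), both of which were highest in DKO replicate 1, at 28.1 CPM against 17.6 to 18.8 in the other libraries for Fyco1. Id3 lay closest to Dhrs13 (0.148) and Irak2 (0.162), with Irak2 at 24.9 to 26.8 CPM in WT and 11.8 and 17.9 CPM in Tet2/3 DKO. Id2 lay closest to the pseudogene Gm7730 (0.095), at about 1 CPM, and to Cst3 (0.148), at 97.7 to 117 CPM in WT and 128 and 173 CPM in Tet2/3 DKO. Tcf4 lay closest to 1700001O22Rik (0.112) and Tmem8b (0.180), both at or under 1.31 CPM, and Id1 to the pseudogene Ftl2-ps (0.058) and Ndufc1 (0.105). None of these 12 genes passed 0.01, and no member was among the nearest of another.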

How the data were processed

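RNA of sorted CD4 SP thymocytes was amplified with SMART-seq v4 and made into Nextera XT libraries by the study. Per the labels, reads were processed with bcl2fastq 2.20.0, fastp 0.21.0 and STAR 2.7.5a, and the authors deposited STAR's read counts per gene for GRCm38. The first, unstranded count column was used. Rows that name no gene (20.8% to 23.7% of reads) were left out. Gene names, positions and lengths came from GENCODE M21, which held 55141 of the 55487 identifiers. Counts were filtered with filterByExpr, scaled by TMM and tested with edgeR 4.0.16 (quasi-likelihood, Benjamini-Hochberg over all tested genes, threshold 0.01, the one the study used) in R 4.3.3, after the script was tested on simulated data. DESeq2 1.42.0, other scalings, filters, strand columns and each library left out were alternatives. SE was the log2 fold change over the square root of F. Ratios used exact permutation tests (Python 3.11.15, enumeration) and Wilson intervals (scipy 1.17.1). Named genes were the 6 members, Tet2, Tet3, list genes past the threshold or needed for a count, and the 2 nearest profiles per member. The members and lists were chosen with earlier results of these data known. Clonotype tables were not used.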

Additional observations from a re-analysis of the deposited data

How the results depend on the processing

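Of the 6 member genes, 0 passed at 0.01 in the reported fit and 0 with any 1 WT library left out. By DESeq2 or at a threshold of 0.05, 2 passed (Id3 at -0.67 and Tcf4 at -1.02 in each). With 1 library left out, the log2 fold change ranged from -1.01 to -0.39 for Id3, 0.11 to 0.70 for Id2, 0.03 to 0.57 for Tcf12 and -0.12 to 0.26 for Id1. Id1 was also -0.17 on second strand counts. All other alternatives kept the sign of each member's change. The E to ID balance turned to -0.16 with the mean of log2 levels and to -0.35 without Id3, and its permutation test could not pass 0.05 in any setting. Genes called over the whole table numbered 530, 1027 by DESeq2, 1173 at 0.05, and 110 to 1311 with 1 library left out. The number of listed genes past 0.01 was 14, and 3 to 28 with 1 library left out. Deviations of same-numbered libraries from their group means correlated at 0.0151 and 0.00446. The 2 Tet2/3 DKO libraries deviate from their mean as mirror images, so these values cannot decide whether the replicate numbers pair the libraries. With the replicate numbers as a block, 358 genes, 0 members and 7 listed genes passed, with Id3 at an adjusted p of 0.0533 and Tcf4 at 0.0982 by edgeR. Over the 14 listed genes past 0.01 and 15 alternatives, 165 of 210 values stayed past the threshold in the same direction and 45 lost it, none with a change of sign. Eomes, Prf1 and Zbtb16 passed under all 15. Depth limits Id1 and Tcf4 most, and 2 Tet2/3 DKO libraries limit every test.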

Other observations

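The symbols Tcf3 and Tcf4 have also been used for Tcf7l1 and Tcf7l2, HMG box factors of the Wnt pathway that are unrelated to the E proteins, so these were read separately by identifier. Of the 4 HMG box genes Tcf7, Lef1, Tcf7l1 and Tcf7l2, 3 fell in Tet2/3 DKO cells and none rose. Tcf7l1 was at 5.98 to 7.54 CPM in WT and 1.86 and 1.34 CPM in Tet2/3 DKO (3.999-fold lower, adjusted p = 0.00379 by edgeR), and Tcf7l2 had 16 to 21 reads in WT and 6 and 10 in Tet2/3 DKO (adjusted p = 0.429). The gene with the symbol Tcf3 thus stayed at 123 to 135 CPM while the gene that shares its alias fell.

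Among regulatory T cell markers, 1 of 5 changed: Foxp3 was at 44.4 to 58.1 CPM in WT and 17.9 and 24.3 CPM in Tet2/3 DKO (log2 fold change -1.31, SE 0.17, adjusted p = 0.00191 by edgeR). The 5 markers summed to 347 to 415 and to 265 and 301 CPM. Tnfrsf18 was at 185 to 244 and 161 and 147 CPM (adjusted p = 0.0394), and Ctla4 at 46.05 to 52.1, 30.9 and 72.9 CPM. Ikzf2 was at 20.4 to 27.4, 43.2 and 18.3 CPM, with DKO replicate 1 above the WT range, and Il2ra at 33.7 to 37.4, 11.4 and 38.3 CPM, with that library below it.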
